A study of Mus musculus with 14 samples.

Results

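Clstn3, S100b, Nrg4 and Ngfr are 4 of the 35275 genes measured in brown adipose tissue of mice that lack or keep Lrpprc in their brown adipocytes, at each of 2 housing temperatures. Clstn3 was chosen by its measured values, since its knockout effect differed between the temperatures more than that of nearly every other gene. The other 3 were taken with it as factors linked to the nerve supply of brown fat, and all 4 passed the filter on low values that 13079 genes passed. Clstn3 levels and differences are therefore given as a description with no p-value, and tests are given for S100b, Nrg4 and Ngfr.

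The tissue came from 14 C57BL/6 mice, stated to be 8 weeks old, with 1 RNA library per animal. All animals carried floxed alleles of Lrpprc, a gene for a protein that stabilises mitochondrial messenger RNA. The controls had no Cre (LrpprcFF), and the knockouts also carried Ucp1-Cre, which recombines only in cells that use the Ucp1 promoter, so any other cell of the tissue keeps the gene. There were 4 controls and 4 knockouts at 22 °C, and 3 controls and 3 knockouts at thermoneutrality, 30 °C, where mice need no extra heat production. Brown adipocytes are the labelled cell type, although the RNA was taken from homogenized tissue and no step that isolates cells is described. Lower expression in bulk tissue can come from fewer cells of a type or from less RNA per cell, which cannot be told apart here.

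Brown fat makes heat when noradrenaline from sympathetic nerve fibres reaches its adipocytes, and adipocytes in turn release factors that attract and maintain those fibres. Clstn3 encodes calsyntenin-3, a membrane protein best known from synapses. In thermogenic adipocytes the same locus also makes a shorter product, Clstn3b, which promotes the secretion of S100b, a small calcium-binding protein that stimulates neurite growth. The gene-level values used here do not separate Clstn3b from Clstn3. Nrg4 is a secreted ligand of the epidermal growth factor family that is released by brown fat and signals through Erbb4. Ngfr, also called p75NTR, is a low-affinity receptor for neurotrophins, found on sympathetic neurons and on immature or non-myelinating Schwann cells, the glia that wrap peripheral nerve fibres.

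In the GENCODE M21 annotation of GRCm38, Clstn3 (ENSMUSG00000008153) lies on the minus strand at chr6:124430759-124464794 and has 7 transcripts, 3 of them coding. S100b (ENSMUSG00000033208) lies on the plus strand at chr10:76253853-76261159, Nrg4 (ENSMUSG00000032311) on the minus strand at chr9:55220222-55326844 and Ngfr (ENSMUSG00000000120) on the minus strand at chr11:95568818-95587735. No annotated gene overlaps Clstn3. The S100b gene overlaps Dip2a on the other strand, which reached 16.3 FPKM, and Nrg4 overlaps Fbxo22 on the other strand, which reached 26.1 FPKM. Use of strand in the counting is not given in the sources used here, so reads from these pairs of genes might not have been separated. FPKM is the number of fragments per kilobase of gene and per M (mega) fragments of the library, and it is the unit of every level below.

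The promoter windows of Clstn3 and Nrg4 are shown because these 2 genes had the higher levels at 22 °C. Both annotated start sites of Clstn3 are shown because the gene-level value pools them. Whether either is the start of Clstn3b was not examined, and no other start within the gene was searched. The sequences come from RefSeq, build GRCm38.p6, and run 5′ to 3′ from 250 bases before the start to 30 bases after it. They cover chr6:124464755-124465034 and chr6:124462715-124462994 for the 2 starts of Clstn3, which are 2040 bases apart, and chr9:55283596-55283875 for Nrg4, all on the minus strand. Capitals mark a match to the cAMP response element.
Clstn3 start 1: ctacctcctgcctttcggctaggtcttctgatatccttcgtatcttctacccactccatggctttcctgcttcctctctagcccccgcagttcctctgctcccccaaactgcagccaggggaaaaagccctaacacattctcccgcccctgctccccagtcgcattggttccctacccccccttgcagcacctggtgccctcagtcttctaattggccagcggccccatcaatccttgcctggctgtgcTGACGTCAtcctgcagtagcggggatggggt
Clstn3 start 2: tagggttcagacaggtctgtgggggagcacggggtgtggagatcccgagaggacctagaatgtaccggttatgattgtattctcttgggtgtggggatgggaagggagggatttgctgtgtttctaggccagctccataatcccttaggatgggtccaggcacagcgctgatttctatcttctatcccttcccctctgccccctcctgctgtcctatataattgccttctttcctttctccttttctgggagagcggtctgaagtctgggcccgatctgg
Nrg4: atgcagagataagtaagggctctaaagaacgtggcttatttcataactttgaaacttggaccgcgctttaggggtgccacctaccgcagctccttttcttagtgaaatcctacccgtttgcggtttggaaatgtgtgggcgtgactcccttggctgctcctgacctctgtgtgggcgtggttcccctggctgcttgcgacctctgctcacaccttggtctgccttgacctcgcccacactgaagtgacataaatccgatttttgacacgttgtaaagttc
Both strands of the windows of all 4 genes were searched for the cAMP response element TGACGTCA, its part TGACG and the estrogen-related receptor element TCAAGGTCA. The first Clstn3 start held TGACGTCA at bases 250 to 257, across the start itself, and the TGACG within it. That element occurred in 1.74% of 32851 promoter windows of the same length, TGACG in 19.9% and TCAAGGTCA in 0.417%. The second Clstn3 start, Nrg4, S100b and Ngfr held none of these letters. A match describes the sequence and is not a measured binding site.

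The libraries held 15.9 to 21.3 M fragments, as recovered from the table. Lrpprc averaged 36.6 ± 11.0 FPKM (SD, n = 4) in the controls and 11.3 ± 1.35 (n = 4) in the knockouts at 22 °C, and 29.7 ± 1.23 (n = 3) and 8.03 ± 1.99 (n = 3) at 30 °C. Xist was at 9.01 to 18.4 FPKM in the 6 animals at 30 °C and at most 0.01 in the 8 at 22 °C, while the Y-linked Ddx3y was at 14.5 to 23.1 FPKM at 22 °C and at most 0.02 at 30 °C. Temperature and sex-linked expression cannot be told apart in any comparison between the temperatures, including the difference between the 2 knockout effects. Summed levels of 12 skeletal muscle markers ran from 25.0 to 14849.3 FPKM within the 30 °C controls alone, and the muscle gene Acta1 was at 5188.6, 1636.4 and 7.19 FPKM in those 3 animals. Of the muscle markers, Tnnc2 was at most 0.225 FPKM. Summed levels of 12 macrophage markers were 797.0 to 2308.1 FPKM in the 30 °C knockouts and 48.7 to 403.2 in all other animals, with none of the 12 at 0 throughout. Summed levels of 12 brown adipocyte markers were 7407.8 to 9467.5 FPKM in the 30 °C knockouts, 11112.5 to 13512.3 in the 30 °C controls and 13950.1 to 17865.1 at 22 °C.

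Clstn3 was high in every group except the knockouts at 30 °C. Its level was 83.6, 84.5, 90.6 and 79.9 FPKM in the 4 controls at 22 °C and 102.6, 64.5, 110.9 and 82.3 FPKM in the 4 knockouts at 22 °C. The controls at 30 °C had 43.1, 73.5 and 79.5 FPKM, and the knockouts at 30 °C had 14.2, 15.4 and 18.5 FPKM. The knockouts at 30 °C lay far below all 11 other animals, and the knockouts at 22 °C spread across the whole range of their controls. Fragments were estimated from the FPKM, the recovered depth and the exonic length in GENCODE M21, which may differ from the length the authors used. By this estimate each library gave 1480 to 9560 fragments of Clstn3, so counting error was small beside the spread between animals.

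In order of the group means, Clstn3 was at 90.1 ± 20.9 FPKM (SD, n = 4) in the knockouts at 22 °C, 84.7 ± 4.43 (n = 4) in the controls at 22 °C, 65.4 ± 19.5 (n = 3) in the controls at 30 °C and 16 ± 2.2 (n = 3) in the knockouts at 30 °C. The first pair of groups did not differ beyond their spread. The highest 30 °C control, at 79.5 FPKM, was just below the lowest 22 °C control, at 79.9. The plot of the 4 genes in each animal shows these values.

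**Figure D1:**
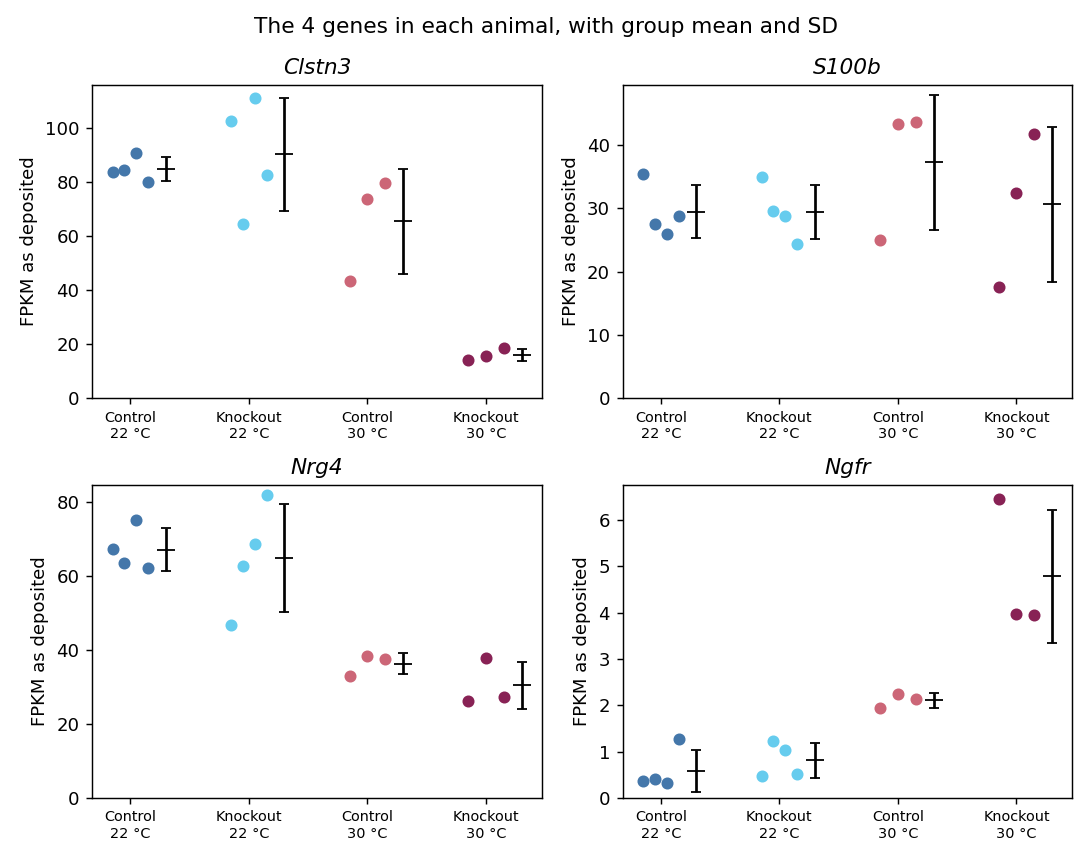
FPKM as deposited (vertical axis, linear from 0) of Clstn3, S100b, Nrg4 and Ngfr in the 14 animals by group (horizontal axis), with points for animals and bars for the group mean and SD. For Clstn3 the 3 knockouts at 30 °C sit between 14.2 and 18.5, below every other animal, while the groups overlap for S100b.

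Differences are given on the log2(scaled FPKM + 1) scale, where the 14 libraries were first brought to a common median over expressed nuclear genes, and they are limma estimates with their standard error (SE) and 95% interval. At 22 °C the knockout minus control difference of Clstn3 was -0.24 (SE 0.2, interval -0.67 to 0.19). With the FPKM as deposited it was 0.06, of the opposite sign, since that scale moves the median of all genes up by 0.24. At 30 °C it was -2.21 (SE 0.23, interval -2.7 to -1.71), or 4.62-fold lower, and the scaled levels of the 2 groups did not overlap. As a share of the 30 °C control mean, the knockouts kept 24.5% in deposited FPKM and 19.9% after scaling. Lower scaled levels with no overlap were seen in 14.6% of the 13079 genes in this comparison. At 22 °C the scaled levels of all 4 genes overlapped between the genotypes, where 9.38% of genes did not overlap. The plot of differences between groups shows Clstn3 with the other 3 genes.

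Only 28 of the 13079 genes had a lower difference than Clstn3 between knockouts and controls at 30 °C. Of these, 13 were mitochondrially encoded, 11 were predicted genes, and the other 4 were Apoc1, which encodes an apolipoprotein, and the keratin genes Krt8, Krt18 and Krt19. They are named by their rank, after their values were seen.

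Clstn3 was higher in the animals at 22 °C than in those at 30 °C in both genotypes, where temperature and sex-linked expression cannot be told apart. In the controls the 22 °C minus 30 °C difference was 0.52 (SE 0.22, interval 0.05 to 0.98). With 1 animal left out it was 0.25 to 0.68, the lowest without the first 30 °C control, at 43.1 FPKM. In the knockouts it was 2.49 (SE 0.22, interval 2.02 to 2.95), a 5.6-fold higher level, and 16th highest of all genes tested. Scaled levels of Clstn3 were higher at 22 °C with no overlap in both comparisons, as were those of 19.9% of genes in the controls and 24% in the knockouts.

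The knockout effect at 22 °C minus that at 30 °C, the readout by which Clstn3 was chosen, was 1.97 (SE 0.3), 9th from the highest of 13079 genes. Just above it were Tusc3 at 1.99 and Cish at 1.98, and just below it were Sorcs2 at 1.89 and Igkc at 1.79. For no gene did this difference pass limma's adjusted p of 0.05 (0% of 13079), and 1694 genes (13%) had an unadjusted p under 0.05. Under the alternative settings the number of genes past the threshold ran from 0 to 213, and the Clstn3 difference from 1.79 to 2.24. With a skeletal muscle score as covariate the Clstn3 difference was 1.81 (SE 0.29).

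**Figure D2:**
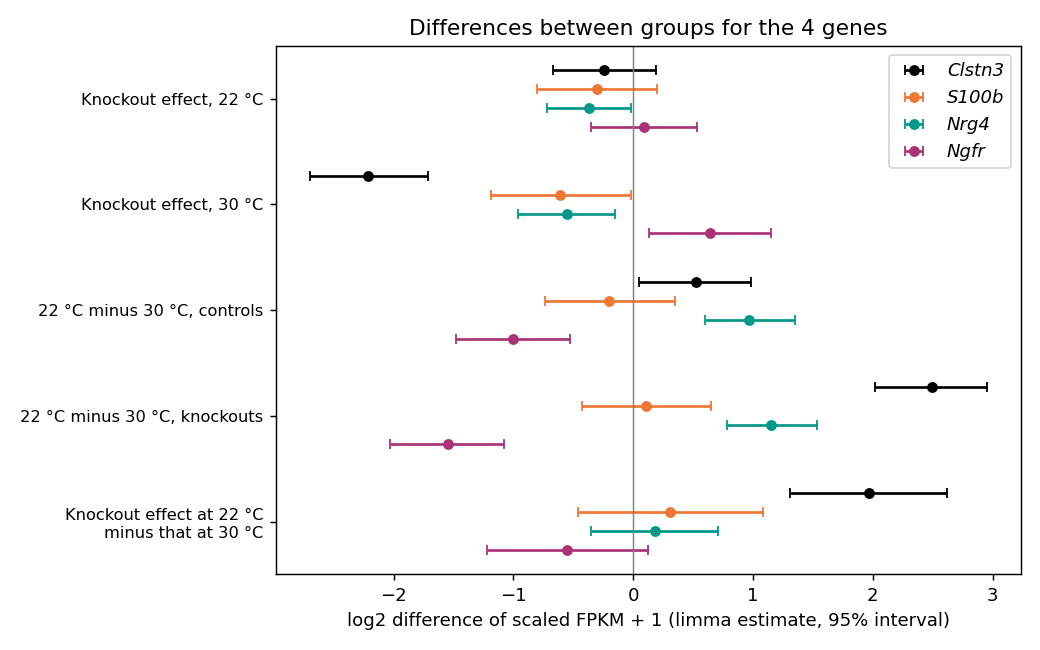
Difference between groups on the log2(scaled FPKM + 1) scale (horizontal axis) for Clstn3, S100b, Nrg4 and Ngfr in 5 comparisons (vertical axis), with points for limma estimates and bars for 95% intervals. Clstn3 stands at -2.21 for the knockout effect at 30 °C and at 1.97 for the difference of the 2 knockout effects, where S100b is at 0.31, Nrg4 at 0.18 and Ngfr at -0.55. The bars of Clstn3 are a description and no test, since it was chosen by these values.

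Relative to the brown adipocyte markers, Clstn3 was also lowest in the 30 °C knockouts. The log2 level of Clstn3 minus the mean log2 level of the 12 markers was -2.49 to -2.08 in these animals, against -0.89 to -0.28 in the controls at 30 °C. At 22 °C it was -0.99 to -0.63 in the controls and -1.41 to -0.83 in the knockouts. Among the 12 markers themselves the knockout minus control difference at 30 °C ran from -1.31 for Ucp1, the uncoupling protein that makes heat, to 0.98 for Dio2, which activates thyroid hormone, so the difference of Clstn3 lay outside their range. Clstn3 was chosen by a difference that uses these values, so its place beside the markers is a description and no test. Ucp1 fell at 30 °C (adjusted p = 0.0302, limma), from 755 ± 233 FPKM (n = 3) in controls to 367 ± 66.6 (n = 3) in knockouts. Of the 12 markers 5 fell at 30 °C and none rose, where 5.28% of all genes fell and 8.82% rose. At 22 °C 1 rose and 2 fell, where 1.97% of all genes passed.

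Genes with a profile like that of Clstn3 were ranked by the root mean square difference of the centred log2 values over the 14 animals, among 8975 genes with at least 5 FPKM in a group, for which the median distance was 1.12. The nearest was Thrsp at 0.45, which encodes a regulator of fatty acid synthesis and had group means of 1930, 1720, 1030 and 551 FPKM in 22 °C controls, 22 °C knockouts, 30 °C controls and 30 °C knockouts. Slc25a48, a mitochondrial carrier gene, followed at 0.46 with means of 10.1, 9.4, 9.41 and 2.16 FPKM. Gys2 at 0.48, for liver-type glycogen synthase, Gpat4 at 0.5, for an enzyme of glycerolipid synthesis, and Otop1 at 0.52, for a proton channel, completed the first 5. Of these, Slc25a48 was the one whose control mean was about as high at 30 °C as at 22 °C, and its knockout minus control difference at 30 °C was -2.0. These distances share the libraries and carry no test. In the plot of relative group means the 5 genes were also lowest in the 30 °C knockouts. That follows in part from picking them by their likeness to Clstn3 in these same animals.

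**Figure D3:**
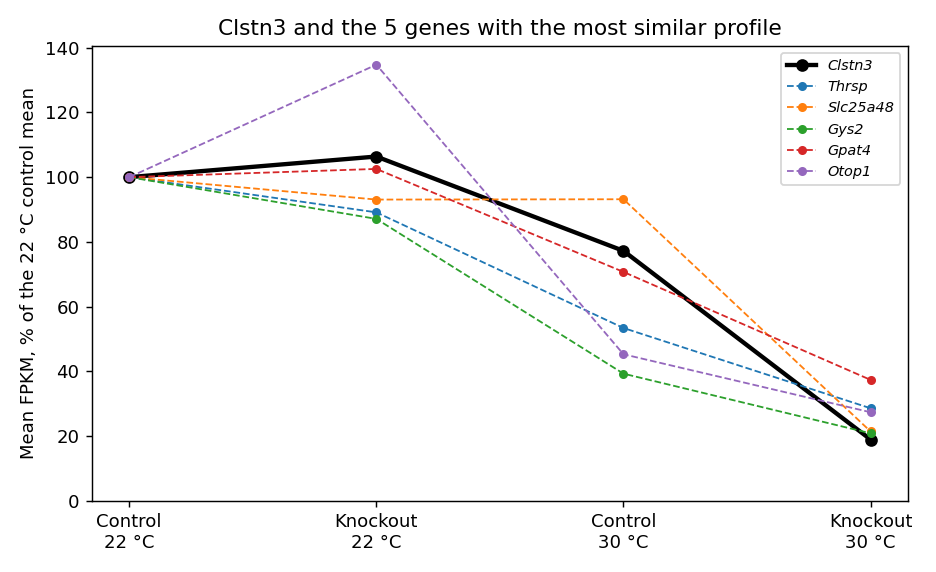
Mean FPKM as a percentage of the mean in the 22 °C controls (vertical axis, linear from 0) by group (horizontal axis) for Clstn3 and the 5 genes with the smallest distance to it, with lines that only join the points of 1 gene. The mean of Clstn3 is lowest in the 30 °C knockouts, at 16 FPKM, as are those of Thrsp, Slc25a48, Gys2, Gpat4 and Otop1.

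Of the other calsyntenins, Clstn1 was highest where Clstn3 was lowest. Clstn1, whose product is linked to axonal transport, had group means of 11.9 ± 4.62 FPKM (n = 4) in controls and 15.3 ± 1.88 (n = 4) in knockouts at 22 °C, and 20.5 ± 1.26 (n = 3) and 31.1 ± 3.63 (n = 3) at 30 °C. It was lower at 22 °C than at 30 °C in controls by -0.7 (SE 0.18, adjusted p = 0.00971) and in knockouts by -0.88 (SE 0.18, adjusted p = 0.00167), by limma. After a correction for GC content the difference was -0.36 (adjusted p = 0.116) in controls and -0.46 (adjusted p = 0.033) in knockouts. Its knockout effect was 0.11 (SE 0.17, adjusted p = 0.806) at 22 °C and 0.28 (SE 0.2, adjusted p = 0.38) at 30 °C. Clstn2 was at most 0.466 FPKM in any animal and was not tested.

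S100b, the secreted factor handled by Clstn3b, did not share the pattern of Clstn3. Its level was 35.5, 27.5, 26.0 and 28.8 FPKM in the 22 °C controls and 34.9, 29.6, 28.8 and 24.4 FPKM in the 22 °C knockouts. At 30 °C the controls had 25.0, 43.3 and 43.7 FPKM and the knockouts 17.6, 32.5 and 41.8 FPKM. All 4 groups overlapped, with means of 29.5 ± 4.2 FPKM (n = 4), 29.4 ± 4.32 (n = 4), 37.3 ± 10.6 (n = 3) and 30.6 ± 12.2 (n = 3), so that no neighbours in their order were apart. The spread was widest at 30 °C.

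The knockout effect on S100b was -0.3 at 22 °C (SE 0.23, interval -0.8 to 0.2, limma adjusted p = 0.583) and -0.61 at 30 °C (SE 0.27, interval -1.19 to -0.02, adjusted p = 0.159). With the FPKM as deposited it was -0.003 (adjusted p = 0.995) and -0.32 (adjusted p = 0.379). With 1 animal left out, the 30 °C value was -0.86 to -0.29, the lowest without the first control and the highest without the first knockout (adjusted p = 0.544). The 22 °C minus 30 °C difference was -0.2 in controls (SE 0.25, adjusted p = 0.561) and 0.11 in knockouts (SE 0.25, adjusted p = 0.731), and the latter turned to -0.2 without the first knockout at 30 °C. The difference of the 2 knockout effects was 0.31 (SE 0.36, interval -0.46 to 1.08, adjusted p = 0.758). At 30 °C the 2 animals with the least S100b, at 25.0 FPKM in a control and 17.6 in a knockout, were those with the most Acta1 in their groups, at 5188.6 and 4520.4 FPKM. With the skeletal muscle score as covariate the knockout effect on S100b at 30 °C was -0.47 (SE 0.25, adjusted p = 0.259).

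Nrg4, the ligand, was higher in the animals at 22 °C than in those at 30 °C in both genotypes. Its level was 67.5, 63.6, 75.3 and 62.3 FPKM in the 22 °C controls and 46.7, 62.7, 68.7 and 81.9 FPKM in the 22 °C knockouts. At 30 °C the controls had 33.0, 38.3 and 37.6 FPKM and the knockouts 26.2, 37.8 and 27.4 FPKM. The 8 animals at 22 °C were all above the 6 at 30 °C. By scaled levels, 19.9% of genes in controls and 24% in knockouts were higher at 22 °C with no overlap. For Nrg4 the genotypes overlapped in deposited FPKM at each temperature. After scaling they did not overlap at 30 °C, at 35.1 to 41.2 in controls and 23.5 to 31.6 in knockouts, as in the 14.6% of genes that were lower without overlap. The group means were 67.2 ± 5.85 (n = 4) and 65.0 ± 14.6 (n = 4) at 22 °C, and 36.3 ± 2.86 (n = 3) and 30.5 ± 6.42 (n = 3) at 30 °C.

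Nrg4 was higher at 22 °C than at 30 °C by 0.97 in controls (SE 0.18, limma adjusted p = 0.00152), a 1.96-fold difference, and by 1.15 in knockouts (SE 0.18, adjusted p = 0.000254), a 2.23-fold difference. The knockout effect was -0.37 at 22 °C (SE 0.16, interval -0.72 to -0.02, adjusted p = 0.284) and -0.55 at 30 °C (SE 0.19, interval -0.96 to -0.15, adjusted p = 0.0674). With the FPKM as deposited it was -0.07 (adjusted p = 0.768) and -0.26 (adjusted p = 0.275). The 30 °C effect passed the threshold without the second knockout at 30 °C, at -0.69 (adjusted p = 0.0336). The difference of the 2 knockout effects was 0.18 (SE 0.25, interval -0.35 to 0.71, adjusted p = 0.8). Erbb4, the receptor of Nrg4, was at most 0.89 FPKM in any animal and was not tested.

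The 3 genes nearest to Nrg4 in profile were A530053G22Rik at a distance of 0.19, Cnst at 0.2 and Gsta4 at 0.2, against a median of 0.68. Cnst encodes consortin, a protein of connexin trafficking, and had means of 34.7, 43.5, 21.2 and 20.2 FPKM in 22 °C controls, 22 °C knockouts, 30 °C controls and 30 °C knockouts. Gsta4, for a glutathione transferase that clears lipid peroxidation products, had means of 60.7, 60.2, 39.6 and 33.3 FPKM in the same order. No nearest genes were sought for S100b and Ngfr, for which the level or the span of group means was too small.

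Ngfr, the receptor, ran opposite to Nrg4 between the temperatures and was the least abundant of the 4 genes. Its level was 0.37, 0.4, 0.31 and 1.26 FPKM in the 22 °C controls and 0.46, 1.23, 1.04 and 0.51 FPKM in the 22 °C knockouts. At 30 °C it was 1.93, 2.24 and 2.14 FPKM in controls and 6.45, 3.97 and 3.94 FPKM in knockouts. All 30 °C animals were above all 22 °C animals, the 30 °C knockouts were above the 30 °C controls, and the 22 °C groups overlapped. By scaled levels, 22.2% of genes were higher in the 30 °C knockouts with no overlap, and 23.6% in controls and 31.7% in knockouts were lower at 22 °C with no overlap. Each library gave an estimated 22 to 474 fragments of Ngfr, so counting error was larger here than for the other 3 genes.

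The group means of Ngfr were 0.587 ± 0.452 (n = 4) in controls and 0.811 ± 0.38 (n = 4) in knockouts at 22 °C, and 2.1 ± 0.157 (n = 3) and 4.79 ± 1.44 (n = 3) at 30 °C. Ngfr was lower at 22 °C than at 30 °C by -1.0 in controls (SE 0.22, limma adjusted p = 0.00419) and by -1.55 in knockouts (SE 0.22, adjusted p = 0.000177). After a correction for GC content the difference in controls was -0.54 (adjusted p = 0.065), past the threshold no longer. The ratio of deposited means was 27.9% in controls and 16.9% in knockouts, a larger change than the log2(FPKM + 1) scale shows at such low levels.

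The knockout effect on Ngfr was 0.09 at 22 °C (SE 0.2, interval -0.35 to 0.53, limma adjusted p = 0.867) and 0.64 at 30 °C (SE 0.24, interval 0.13 to 1.15, adjusted p = 0.0887). With the FPKM as deposited the effect at 30 °C was 0.87 and passed the threshold (adjusted p = 0.013), on a scale that moves the median of all genes up by 0.31. The difference of the 2 knockout effects was -0.55 (SE 0.31, interval -1.22 to 0.12, adjusted p = 0.498).

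Counted over S100b, Nrg4 and Ngfr, none of the 3 passed limma's threshold for the knockout effect at 22 °C, where 1.97% of all genes did, and none at 30 °C, where 14.1% did. Without adjustment 1 of the 3 had a p under 0.05 at 22 °C (Nrg4), as did 15.8% of genes, and all 3 had one at 30 °C, as did 28.3% of genes. For temperature, 2 of the 3 passed in controls, where 38.8% of genes did, and 2 in knockouts, where 51.1% did. Both times these were Nrg4, higher at 22 °C as were 18.2% of genes in controls and 21.8% in knockouts, and Ngfr, lower at 22 °C as were 20.6% and 29.4%.

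Ngfr and S100b both belong to the Schwann cell list, and they compared differently with Sox10, a transcription factor that defines the glial lineage. Sox10 was at 0.76, 0.55, 1.59 and 2.35 FPKM in the 22 °C controls and 1.08, 1.61, 1.97 and 0.75 FPKM in the 22 °C knockouts. At 30 °C it was 4.39, 4.65 and 2.75 FPKM in controls and 10.8, 5.08 and 7.98 FPKM in knockouts. The ratio of Ngfr to Sox10 stayed within 0.197 to 0.781 over the 14 animals. The ratio of S100b to Sox10 was 12.2 to 49.8 at 22 °C and 1.63 to 15.9 at 30 °C, as the plot of glial genes shows.

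**Figure D4:**
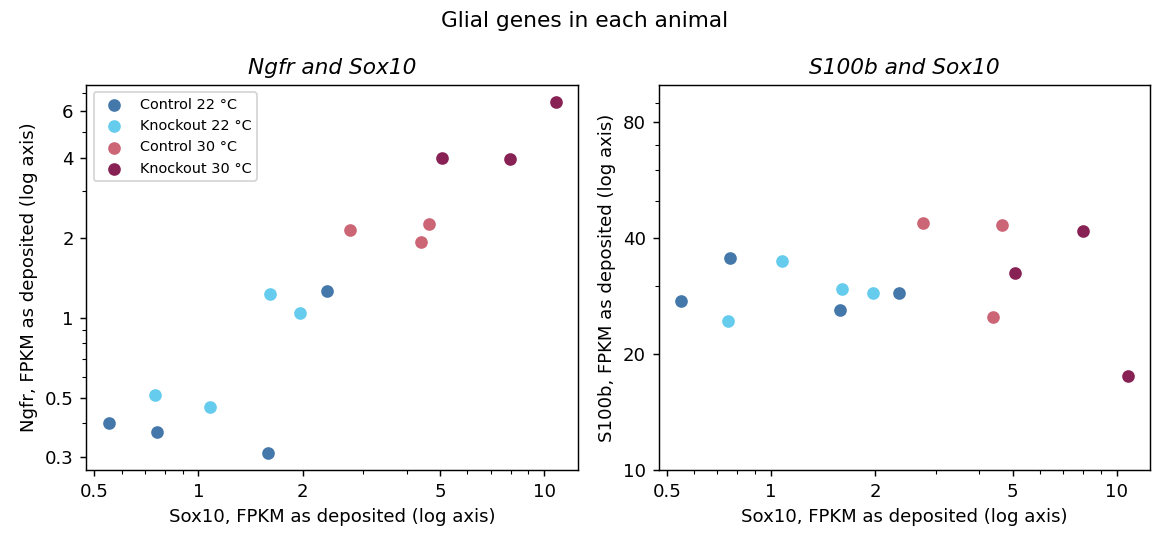
FPKM as deposited of Ngfr (left, vertical log axis) and S100b (right, vertical log axis) against Sox10 (horizontal log axis), with 1 point per animal coloured by group. Ngfr runs from 0.31 to 6.45 along with Sox10, while S100b shows no such course, with 17.6 at the highest Sox10 value of 10.8.

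Of 20 Schwann cell genes listed, 19 were tested. At 22 °C none passed limma's threshold for the knockout effect (median -0.14, against 0.00 over all genes), and at 30 °C 5 rose and none fell (median 0.56, against 0.06). Over all genes 8.82% rose and 5.28% fell at 30 °C. Foxd3, a transcription factor of neural crest and early glia, rose at 30 °C by 1.01 (SE 0.22, adjusted p = 0.00966), from 1.24, 1.0 and 0.91 FPKM in controls to 5.67, 2.91 and 3.11 in knockouts. Pmp22, a myelin protein gene, rose by 0.8 (SE 0.23, adjusted p = 0.0381), and Fabp7, a fatty acid binding protein of immature glia, by 0.79 (SE 0.2, adjusted p = 0.0202). Animals are numbered here in the order in which their values are given. Foxd3 passed in each of 6 fits that left out 1 animal, Pmp22 in 2 and Fabp7 in 3. Pmp22 did not pass without control 2 or 3 or knockout 1 or 3, at 0.58 to 0.87, nor Fabp7 without control 2 or knockout 1 or 3, at 0.62 to 0.83. Pmp22 also lost its call with no filter on low values and with the 2 groups alone (adjusted p = 0.0673 and 0.0819), and Fabp7 with a pseudocount of 0.1 and with quantile normalization (adjusted p = 0.0558 and 0.0672). After a GC correction Foxd3 was at 0.61 (adjusted p = 0.029). The summed level of the 20 genes was 185.6 to 281.2 FPKM in the 30 °C knockouts and 106.0 to 162.1 in their controls, with S100b and Ngfr included, and Gfap was at most 0.213.

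Between the temperatures 7 of the 19 Schwann cell genes passed in controls, where 38.8% of all genes did, 5 of them lower and 2 higher at 22 °C than at 30 °C. In knockouts 15 passed, where 51.1% of all genes did, all 15 lower. The medians were -0.2 and -0.77. Sox10 was lower at 22 °C by -1.11 in controls (SE 0.3, adjusted p = 0.0111) and by -1.79 in knockouts (SE 0.3, adjusted p = 0.000417). After a GC correction the former lost its call, at -0.44 (adjusted p = 0.147), and the latter was -0.78 (adjusted p = 0.0107). Scn7a, a sodium channel gene of non-myelinating Schwann cells, and Cdh19, a glial cadherin, were higher at 22 °C in controls by 0.84 (SE 0.19, adjusted p = 0.00542) and 0.71 (SE 0.21, adjusted p = 0.0193), the latter without a call when the second 30 °C control was left out, at 0.67 (adjusted p = 0.064). Both calls were lost after a GC correction, at 0.41 (adjusted p = 0.108) for Scn7a and 0.24 (adjusted p = 0.435) for Cdh19, and Cdh19 lost its call in a fit of the 2 groups alone (adjusted p = 0.0613). Macrophage and lymphocyte markers were lower at 22 °C too, as given at the end, and their part in the Schwann cell values was not tested.

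Transcripts of the sympathetic fibres themselves were scarce. The cell bodies of these neurons lie in ganglia outside the tissue. Of 20 listed genes only Uchl1 and Stmn2 were tested. Th, the rate-limiting enzyme of noradrenaline synthesis, was at most 0.286 FPKM and Dbh, the enzyme of its last step, at most 0.0202. Dbh, Slc6a2, Hand2, Nefl and Nefm were each under 0.1 FPKM in every animal. Uchl1, a neuronal ubiquitin hydrolase, was lower at 22 °C by -0.78 in controls (SE 0.24, adjusted p = 0.0226) and by -1.51 in knockouts (SE 0.24, adjusted p = 0.000332), with 0.09 to 0.55 FPKM at 22 °C and 0.94 to 5.83 at 30 °C. Uchl1 reached 1 FPKM only at 30 °C, so it passed the filter on low values only through the temperature where it was high. The call in controls was lost without 22 °C control 2 or 30 °C control 2 or 3, at -0.74 to -0.72, and with quantile normalization, at -0.58 (adjusted p = 0.0761). After a GC correction Uchl1 was -0.34 (adjusted p = 0.34) in controls, without a call, and -0.94 (adjusted p = 0.00902) in knockouts. Neither Uchl1 nor Stmn2 passed limma's threshold for a knockout effect, with unadjusted p-values of 0.779 and 0.384 at 22 °C and 0.0211 and 0.276 at 30 °C. The summed level of the 20 genes was 2.02 to 4.58 and 1.83 to 3.5 FPKM in controls and knockouts at 22 °C, and 5.7 to 5.77 and 7.07 to 15.4 FPKM at 30 °C.

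Of 20 listed neurotrophic ligands, Nrg4 and S100b included, 9 were tested. Fgf21, a stress hormone, was the only one with a knockout effect past the threshold, at 22 °C, where it rose by 2.08 (SE 0.47, limma adjusted p = 0.0407) from 0.26, 0.06, 0.05 and 0.18 FPKM to 16.8, 5.1, 1.35 and 1.84. This was 1 of the 9, against 1.97% of all genes, and at 30 °C none of them passed, against 14.1%. Fgf21 was at 0.0, 0.17 and 0.0 FPKM in the 30 °C controls and at 1.16, 1.22 and 3.32 in the 30 °C knockouts. It reached 1 FPKM only in knockouts, so it passed the filter on low values only through the genotype where it was high. At 22 °C Fgf21 kept its call in 3 of the 8 fits that left out 1 animal and lost it without any of the 4 controls or the second knockout, at 2.02 to 2.14 (adjusted p from 0.0715 to 0.122). It also lost it with no filter on low values, with quantile normalization, with the 2 groups alone and without the third and the fourth control, whose identifiers begin with R where those of the other animals begin with E (adjusted p from 0.054 to 0.127). Nrtn, which encodes neurturin, was lower at 22 °C by -1.2 in controls (SE 0.24, adjusted p = 0.00246) and by -1.24 in knockouts (SE 0.24, adjusted p = 0.00105), with 9.32 to 28.8 FPKM at 22 °C and 34.1 to 42.5 at 30 °C. After a GC correction the Nrtn difference was -0.28 (adjusted p = 0.248) in controls and of the opposite sign, 0.29 (adjusted p = 0.185), in knockouts. Igf1, an insulin-like growth factor, was lower at 22 °C in knockouts by -1.02 (SE 0.27, adjusted p = 0.00748). Bdnf, another neurotrophin, was at most 0.286 FPKM.

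Of 20 listed neurotrophic receptors, Ngfr included, 16 were tested. Sorcs2, a sortilin-family partner of Ngfr in proneurotrophin binding, was, like Clstn3, lowest in the 30 °C knockouts. It was at 6.59, 12.1, 15.2 and 6.3 FPKM in the 22 °C controls, 12.0, 11.9, 23.8 and 27.3 in the 22 °C knockouts, 7.66, 8.11 and 6.81 in the 30 °C controls and 2.21, 4.95 and 2.27 in the 30 °C knockouts. All 3 knockouts at 30 °C were below every other animal. By scaled levels, 14.6% of all genes were lower with no overlap in the 30 °C knockouts than in their controls. In knockouts 24% were higher at 22 °C than at 30 °C with no overlap. Sorcs2 fell in knockouts at 30 °C by -1.33 (SE 0.37, limma adjusted p = 0.0313), the only receptor with a knockout effect past the threshold, and it kept that call in 1 of 6 fits that left out 1 animal. It lost it without any of the 3 controls or knockout 1 or 3, at -1.4 to -1.2 (adjusted p from 0.0576 to 0.116), and with no filter on low values (adjusted p = 0.0599). It was higher at 22 °C in knockouts by 2.28 (SE 0.35, adjusted p = 0.000268), and its difference of the 2 knockout effects was 1.89 (SE 0.49, adjusted p = 0.194).

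Between the temperatures, 7 of the 16 receptors were lower and none higher at 22 °C in controls, against 38.8% of all genes called. In knockouts 12 passed, 8 lower and 4 higher, against 51.1%. Gfra4, a co-receptor of the neurturin family, was lower at 22 °C by -1.63 in controls (SE 0.2, adjusted p = 0.000262) and by -2.15 in knockouts (SE 0.2, adjusted p = 2.3e-05), with 1.72 to 4.38 FPKM at 22 °C and 9.56 to 21.9 at 30 °C. After a GC correction these were -0.86 (adjusted p = 0.014) and -0.94 (adjusted p = 0.00396). Cntfr, the receptor of ciliary neurotrophic factor, was lower at 22 °C in controls by -1.43 (SE 0.36, adjusted p = 0.00819), but without a call after a GC correction, at -0.92 (adjusted p = 0.092). Bex3, which encodes an Ngfr-binding protein, was lower in knockouts by -1.49 (SE 0.21, adjusted p = 0.000175). Ntrk2, the receptor of Bdnf, and Sort1, for sortilin, were higher at 22 °C in knockouts by 0.7 (SE 0.25, adjusted p = 0.0341) and 0.6 (SE 0.23, adjusted p = 0.0449). Each of these 2 calls held in 2 of 7 fits that left out 1 animal. Ntrk2 lost it without 22 °C knockout 3 or 4 or any 30 °C knockout, at 0.6 to 0.75, and Sort1 without 22 °C knockout 2, 3 or 4 or 30 °C knockout 1 or 3, at 0.51 to 0.59. Both calls were also lost with no filter on low values (adjusted p = 0.0613 and 0.0767) and with the muscle score as covariate (adjusted p = 0.0807 and 0.0947). Sort1 alone lost it with the FPKM as deposited, an equal total or a GC correction (adjusted p from 0.0578 to 0.0674).

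Axon guidance cues and their receptors, 25 listed and 18 tested, gave 3 higher and 1 lower in the 30 °C knockouts, 4 of 18 against 14.1% of all genes. At 22 °C none of the 18 passed, against 1.97%. Ntn1, for netrin-1, which attracts or repels axons, rose at 30 °C by 1.9 (SE 0.3, limma adjusted p = 0.00219), from 1.42, 1.53 and 1.12 FPKM in controls to 5.91, 9.41 and 14.4 in knockouts. Slit1, for a repellent cue, rose by 2.8 (SE 0.54, adjusted p = 0.00563), from 0.13, 0.16 and 0.08 FPKM to 2.8, 4.83 and 30.6. Slit1 reached 1 FPKM only in knockouts, so it passed the filter on low values only through the genotype where it was high. Ntn1 and Slit1 both passed in each of 6 fits that left out 1 animal, and without the third knockout, the highest, the Slit1 difference was 1.9. With the 2 groups alone Slit1 did not pass (adjusted p = 0.0588). Sema3f, a repellent semaphorin, rose by 1.15 (SE 0.31, adjusted p = 0.027), and Efna1, for an ephrin, fell by 0.87 (SE 0.25, adjusted p = 0.0336). Sema3f kept its call in 2 of those 6 fits and Efna1 in 1. Neither passed without control 1 or 3 or knockout 1 or 3, at 1.0 to 1.1 for Sema3f and at -0.85 to -0.63 for Efna1, and Efna1 also not without the second control, at -0.94. Neither passed with no filter on low values (adjusted p = 0.0531 and 0.0611). Efna1 did not pass with the FPKM as deposited (-0.60), with an equal total (-0.73), with the 2 groups alone or with the muscle score either (adjusted p from 0.0534 to 0.0995).

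Between the temperatures, 4 of the 18 guidance genes were lower and none higher at 22 °C in controls, against 38.8% of all genes called. In knockouts 8 passed, 6 lower and 2 higher, against 51.1%. In controls these included Sema3f at -1.05 (SE 0.29, adjusted p = 0.0128), Sema3b at -1.04 (SE 0.19, adjusted p = 0.00164) and Efna1 at -0.86 (SE 0.23, adjusted p = 0.0121), and Sema3f missed the threshold without the second 30 °C control, at -0.9 (adjusted p = 0.0598). After a GC correction Sema3f and Efna1 lost their calls, at -0.62 (adjusted p = 0.0797) and -0.67 (adjusted p = 0.0523), and Sema3b was -0.59 (adjusted p = 0.0256). In knockouts the lower genes included Slit1 at -2.35 (SE 0.5, adjusted p = 0.0021), Sema3f at -1.87 and Sema3b at -1.67, the last -1.07 after a GC correction. At 22 °C Slit1 reached 1 FPKM only in the first and second knockout, at 1.05 and 1.21, and the filter on low values needs 3 animals. It therefore passed that filter only with the 30 °C knockouts, the group where it was high. With 1 animal left out Slit1 was -2.93 to -1.45 and passed in each of 7 fits, the latter value without the third 30 °C knockout. The 2 higher were Efna5 at 0.43 (SE 0.13, adjusted p = 0.0152) and the semaphorin receptor Nrp1 at 0.42 (SE 0.16, adjusted p = 0.0465). The call of Efna5 was lost without 30 °C knockout 1 or 3, at 0.36 and 0.38, and that of Nrp1 held in 2 of 7 fits that left out 1 animal, and was lost without 22 °C knockout 2, 3 or 4 or 30 °C knockout 1 or 3, at 0.34 to 0.42. Nrp1 was at 0.21 (adjusted p = 0.245) after a GC correction and 0.32 with the FPKM as deposited (adjusted p = 0.112) or the muscle score (adjusted p = 0.129). It missed the threshold with no filter, an equal total, the 2 groups alone and no trend too (adjusted p from 0.0505 to 0.0837).

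**Figure D5:**
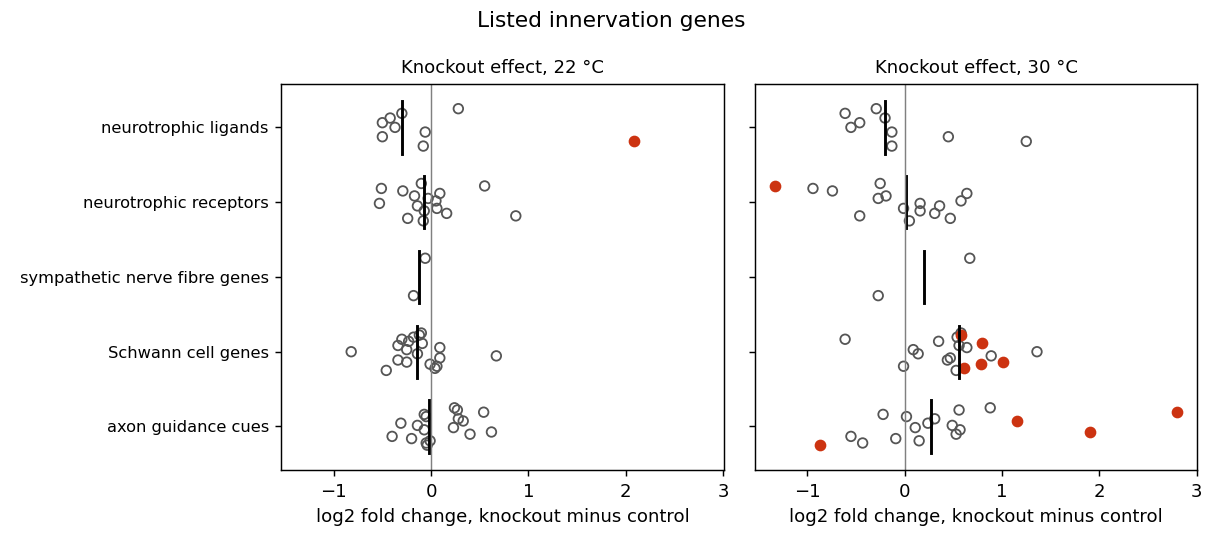
Knockout minus control difference on the log2(scaled FPKM + 1) scale (horizontal axis) at 22 °C (left) and 30 °C (right) for each tested gene of 5 lists (vertical axis), with S100b, Nrg4 and Ngfr among them; filled red points passed limma's adjusted p of 0.05, and black bars are list medians. At 22 °C 1 gene is filled, Fgf21, and at 30 °C the Schwann cell median stands at 0.56 with 5 genes filled.

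Apart from the 4 genes themselves, the innervation lists held 101 genes, of which 59 were tested. At 22 °C 1 of the 59, or 1.69%, had a knockout effect past the threshold, against 1.97% of all genes. With the FPKM as deposited it was 6, or 10.2%, against 24.8%, and with array weights 5, or 8.47%, against 6.93%. At 30 °C 10 did, 8 higher and 2 lower, or 16.9% against 14.1%. Without knockout 1 or 3 it was 3 of 59, or 5.08%, against 6.71% and 7.4% of all genes. Without control 2 or 3 it was 4, or 6.78%, against 6.93% and 9.76%, so that the list stood below all genes in each of these 4 fits. It also did so with no filter on low values, at 5 of 100 against 6.87%. Without knockout 2 it was 16, or 27.1%, against 17.1%. With the FPKM as deposited it was 25, or 42.4%, against 34.9%, with array weights 23, or 39%, against 27.9%, and with an equal total 18, or 30.5%, against 20.1%. For temperature, 19 of the 59 passed in controls, 2 higher and 17 lower at 22 °C, or 32.2% against 38.8%. After a GC correction 7 did, or 11.9%, against 22.6%. The list stood above all genes in other fits. Without the third and the fourth 22 °C control, those with R identifiers, 31 did, or 52.5%, against 46.6%, and with array weights 35, or 59.3%, against 57.9%. Without the fourth 22 °C control 27 did, or 45.8%, against 43.9%, and without the third 30 °C control 19, or 32.2%, against 28.9%. With no filter on low values 25 of 100 did, or 25%, against 20.3%. In knockouts 37 passed, 6 higher and 31 lower, or 62.7% against 51.1%. Among genes with a mean of at least 5 FPKM 15 of 28 did, or 53.6%, against 54.6%. The comparisons share groups of animals, so their counts are not independent of each other. These counts include Fgf21 and Slit1, which passed the filter on low values only through knockouts. They also include Uchl1, which passed it only through animals at 30 °C.

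Markers of other cell types were counted in the same comparisons. Over all genes 8.82% rose and 5.28% fell in the 30 °C knockouts, and 1.97% had a knockout effect past the threshold at 22 °C. At 22 °C 20.6% of all genes were lower and 18.2% higher than at 30 °C in controls, and 29.4% were lower and 21.8% higher in knockouts. Of 12 macrophage markers 11 rose in the 30 °C knockouts (median 2.05), and none passed at 22 °C. Between the temperatures 6 of them were lower and 1 higher at 22 °C in controls (median -0.84), and 11 were lower and 1 higher in knockouts (median -2.52). Of 8 lymphocyte markers tested none had a knockout effect past the threshold, while 4 were lower at 22 °C in controls (median -0.88) and 8 in knockouts (median -1.34). Of 11 muscle markers tested none passed in any comparison, with knockout effect medians of -0.75 at 22 °C and 1.87 at 30 °C, and temperature medians of 0.35 in controls and -2.12 in knockouts. Of 10 endothelial markers none had a knockout effect past the threshold, 2 were lower at 22 °C in controls, and 1 was higher and 1 lower in knockouts. The part of these cells in the levels of Clstn3, Nrg4 and Ngfr and in the counts of the innervation lists was not tested, apart from the muscle score, with which Nrg4 and Ngfr kept their temperature calls and the Clstn3 difference at 30 °C was -2.1 (SE 0.22).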

How the data were processed

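RNA from brown adipose tissue of 14 mice was sequenced on an Illumina HiSeq, per the labels. The authors deposited FPKM per gene and animal on build mm9, per the submitters' processing notes, and its aligner, counting tool, strand setting and annotation are not given in the sources used here. Symbols came from GENCODE M21 by Ensembl identifier (34490 of 35275 genes), and coordinates are of GRCm38, not of the authors' build. Depths of 15.9 to 21.3 M fragments were recovered from the steps between low values, of which 89.5 to 91.6% lay within 0.05 of a whole fragment. FPKM were divided by a scaling factor per library, the median ratio over 10049 nuclear genes with at least 1 FPKM in every library (0.822 to 0.947 in controls and 1.05 to 1.2 in knockouts). Genes with at least 1 FPKM in at least 3 animals (13079) were tested on log2(scaled FPKM + 1), pseudocount 1, with limma 3.58.1 in R 4.3.3, with all 4 groups in 1 fit, a mean-variance trend, and Benjamini-Hochberg adjusted p under 0.05 over all genes. The fit was tested on simulated data. The text uses log2 for these differences, while levels are FPKM as deposited by the authors.

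The labels give each library as a separate animal with its own identifier, so no pairing was used. Clstn3 was chosen by its own difference and has no p-value. Named genes are the 4 genes, Lrpprc and Ucp1 as checks, from each list the genes past the threshold with at most the 3 largest differences per direction, and the 5 genes nearest to Clstn3 and 3 nearest to each other gene with at least 5 FPKM and group means spanning 1 log2 unit. The 4 genes and the lists were chosen with earlier results of these data known. Alternatives changed the pseudocount, filter, scaling, GC correction, samples and weights. A skeletal muscle score as covariate was added after seeing the data. Some genes that this rule names are not reported here.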

Additional observations from a re-analysis of the deposited data

Results flagged for a closer look

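In the 22 °C controls, the fourth animal had an Ngfr level of 1.26 FPKM while the other 3 had 0.37, 0.4 and 0.31, a gap that is large for the range of the group by Dixon's criterion. Such a gap arises by chance in about 1 in 20 groups of this size, and each of the 4 genes was searched in both 22 °C groups. That animal also had the highest Sox10 of its group, at 2.35 FPKM, and is 1 of 2 controls whose identifiers begin with another letter than those of all other animals. Without both of these controls Ngfr was still lower at 22 °C than at 30 °C, by -1.15 (limma adjusted p = 0.00185).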

How the results depend on the processing

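Of the differences of S100b, Nrg4 and Ngfr under the alternatives, 295 kept their direction and side of the threshold, 5 passed it newly, 1 no longer passed and 6 changed sign. Of those of Clstn3, which has no test, 103 kept their direction and 1 changed sign. New passes were Ngfr at 30 °C between knockouts and controls, with FPKM as deposited (0.872), an equal total over nuclear genes (0.758) and array weights (0.589), and Nrg4 there with array weights (-0.634) and with 1 animal left out (-0.687 to -0.481, the former without the second 30 °C knockout). The temperature difference of Ngfr in controls no longer passed after GC correction (-0.545). Sign changes were the knockout effect at 22 °C of Clstn3 with FPKM as deposited (0.059) and of Ngfr with 1 animal left out (-0.001 to 0.278, the former without the second 22 °C knockout), the temperature difference of S100b in knockouts with array weights (-0.08), GC correction (-0.002), the muscle score (-0.06) and with 1 animal left out (-0.203 to 0.368, the former without the first 30 °C knockout), and its difference of knockout effects (-0.006, without that animal, to 0.567). Nrtn in knockouts changed sign after GC correction (0.293). The cause was not tested.

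Genes with a knockout effect past the threshold at 22 °C numbered 258 (119 higher, 139 lower), and 130 with no filter, 3248 with FPKM as deposited (3167 higher, 81 lower), 461 with an equal total (386 higher, 75 lower), 83 from the 2 groups alone, 906 with array weights and 70 to 272 with 1 animal left out. At 30 °C they numbered 1845 (1154 higher, 691 lower), and 4571 with FPKM as deposited (4280 higher, 291 lower), 3652 with array weights and 877 to 2243 with 1 animal left out; with an equal total they split into 2225 higher and 409 lower. For temperature in controls there were 5072, and 2962 after GC correction and 3495 to 5738 with 1 animal left out. In knockouts there were 6689, and 4250 among genes with a mean of at least 5 FPKM and 5249 to 6553 with 1 animal left out. For the difference of knockout effects there were 0, and 9 with no filter, 6 with FPKM as deposited, 8 with quantile normalization, 10 with an equal total, 7 without the trend, 213 with array weights, 13 after GC correction, 3 with the muscle score and 0 to 197 with 1 animal left out, the 197 without the second 30 °C knockout. Innervation genes with a knockout effect at 30 °C, 10 here, were 25 with FPKM as deposited, 23 with array weights and 5 with no filter.

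No paired analysis was possible because the animals carry individual identifiers and the groups share no replicate numbers. The 3 animals per group at 30 °C limit the precision there, and the low level of Ngfr limits its counts.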
